A study of Homo sapiens with 24 samples.

Results

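The oxaliplatin-resistant line HCT116 oxpl-R was compared with and without induction of the adenovirus protein E1A, in cells that received no oxaliplatin. HCT116 is an established human colorectal adenocarcinoma cell line, and HCT116 oxpl-R cells were derived from it by repeated pulses of oxaliplatin and have a hypotetraploid karyotype. Both lines carried an E1A transgene under doxycycline control (TetOn-E1A), and 0.5 µg/mL doxycycline was given to the E1A group, while the control group was left untreated. The members are the 6 libraries that the labels name so, 3 biological replicates of HCT116 oxpl-R E1A and 3 of HCT116 oxpl-R control, of 24 libraries in the series. Further groups serve here for comparison: HCT116 oxpl-R cells given 25 µM oxaliplatin for 24 h with or without doxycycline added 3 h earlier, and parental HCT116 cells with or without doxycycline. How long doxycycline acted in the cells without oxaliplatin is not given separately. No cells given doxycycline without the transgene were analysed here, so effects of doxycycline and of E1A cannot be told apart.

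E1A is an early protein of adenovirus that has no DNA-binding domain of its own and acts by binding host proteins. It binds the retinoblastoma protein RB1 and its relatives, which releases E2F factors and drives cells into S phase, and it binds the acetyltransferases EP300 and CREBBP and chromatin remodellers, through which it raises some host genes and represses others. E1A is also known to make many tumour cells more sensitive to DNA-damaging drugs.

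The 6 libraries held between 24837989 and 32388797 estimated counts in the count table, and 11.03% to 14.4% of the counts came from the mitochondrial genome. All 6 had at least 50 counts of 7 of 11 markers of colorectal epithelium, among them EPCAM, KRT8, KRT18, KRT19, CDH1, CDX2 and ELF3, while CDH17, CDX1, LGR5 and GPA33 stayed below 50. Of 4 leukocyte markers, PTPRC and CD3E had at most 3 counts, while CD68 ran from 26 to 80 and LYZ from 28 to 52. The 3 endothelial markers had at most 13 counts, and of the 6 fibroblast markers COL1A1 alone had at least 50 counts in every library. The libraries did not group by induction alone. The log2 levels of E1A replicate 3 correlated most closely across genes with control replicate 3 (Pearson's r of 0.989), and less closely with the other E1A replicates (0.972 and 0.975). Control replicate 3 was at 0.986 and 0.979 with the other controls. E1A replicate 1 ran from 0.968 to 0.982 with the other libraries, and each of those had a higher correlation elsewhere.

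The transgene itself was read as a row of its own, Ad5-E1A. The controls held 161, 222 and 231 counts of it, and the E1A libraries 21976, 15312 and 26098. The groups were far apart, and the 3 libraries follow their labels. On the scale of CPM (counts per 1e6 normalized counts of a library), Ad5-E1A rose 91.7-fold (log2FC 6.52 ± 0.24 SE, adjusted p = 2.79e-06 by the quasi-likelihood test of edgeR). The uninduced level was 1.02% of the induced mean, so the controls were not entirely free of the transcript. The 3 induced libraries gave Ad5-E1A between 0.0579% and 0.0921% of their counts, with replicate 2 the lowest.

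Few host genes passed the test in the resistant cells. Of 17212 genes tested in the count table, 13 rose at an adjusted p below 0.05 (0.0755% of those tested), Ad5-E1A among them, and 0 fell. Of 3056 genes that come after SETP6 in the alphabet, which were tested in a second table, 2 rose (0.0654%) and 0 fell. At an unadjusted p below 0.05, 609 genes (3.54%) were higher and 341 (1.98%) lower in the count table, and 95 (3.11%) and 67 (2.19%) among the later genes. DESeq2 called 56 genes (0.325%) higher and 16 (0.093%) lower in the count table, and 7 (0.229%) and 5 (0.164%) among the later genes. The number of calls depended on single libraries: without control replicate 1 the count table gave 2 genes, Ad5-E1A and EGR1, without E1A replicate 3 it gave 22, and without both libraries of replicate 3 it gave 287, of which 130 were higher and 157 lower. Among the genes after SETP6 the 2 calls were lost without any 1 of the 3 controls.

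**Figure D1:**
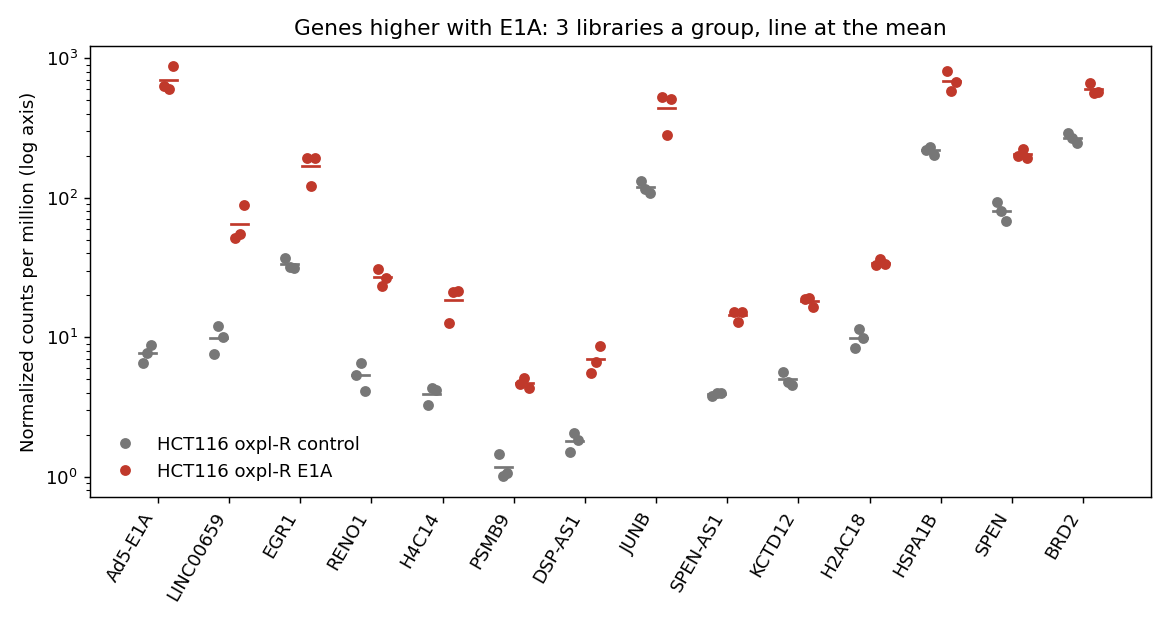
Normalized CPM (log axis) of the called genes in each HCT116 oxpl-R library, grey for control and red for E1A, with a line at the mean of 3 libraries. NSUN5P1, at 0 in all controls, is left out of the plot, and in every gene shown the 3 E1A libraries lie above the 3 controls.

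The immediate early genes EGR1 and JUNB were among the 14 human genes that rose. EGR1 (chr5:138465479-138469303) encodes a zinc finger transcription factor that growth factor and stress signals switch on within minutes. It was at 36.9, 31.9 and 31.3 CPM in the controls and at 194, 122 and 191 CPM with E1A. The groups did not overlap, and EGR1 rose 5.07-fold (log2FC 2.34 ± 0.20 SE, adjusted p = 0.00388). JUNB (chr19:12791486-12793315), a subunit of the AP-1 transcription factor, was at 132, 116 and 109 CPM in the controls and at 530, 280 and 508 CPM with E1A. It rose 3.69-fold (log2FC 1.88 ± 0.24 SE, adjusted p = 0.0255). E1A replicate 2, which had the lowest count of Ad5-E1A, was also the lowest of the 3 E1A libraries for both genes. By CPM it was also the lowest for HSPA1B, BRD2, RENO1 and SPEN-AS1, but the highest for SPEN, H2AC18, KCTD12 and PSMB9. For the other called genes it was in the middle. A relation to the level of Ad5-E1A was not tested. JUNB did not pass with any 1 of the 3 controls left out (adjusted p from 0.0727 to 0.14), whereas EGR1 passed in every alternative tried.

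Promoter windows were searched for 3 kinds of motif, the CArG box, which binds serum response factor, words bound by E2F and the cAMP response element. Of the 13 called genes with a window EGR1 alone held one of these, 2 CArG boxes, and other elements were not searched. The promoter windows of EGR1, JUNB and HSPA1B are shown since these are called genes known to be switched on by signals or stress, and that of E2F1, a gene that is itself a target of E2F, for contrast. Each window holds 250 bases before and 50 after the start, 5′ to 3′ on the gene's strand, from RefSeq on GRCh38.p14. EGR1 lies at chr5:138465229-138465528 (+), JUNB at chr19:12791236-12791535 (+), HSPA1B at chr6:31827488-31827787 (+) and E2F1 at chr20:33686336-33686635 (-). Capitals mark the CArG boxes in EGR1 and the E2F words in E2F1.
EGR1: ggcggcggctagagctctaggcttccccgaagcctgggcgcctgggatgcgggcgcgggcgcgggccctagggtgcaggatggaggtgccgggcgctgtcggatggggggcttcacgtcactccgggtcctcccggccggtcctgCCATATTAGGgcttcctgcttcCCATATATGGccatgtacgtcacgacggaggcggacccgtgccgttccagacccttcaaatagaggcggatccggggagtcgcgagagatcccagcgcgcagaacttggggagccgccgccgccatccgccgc
JUNB: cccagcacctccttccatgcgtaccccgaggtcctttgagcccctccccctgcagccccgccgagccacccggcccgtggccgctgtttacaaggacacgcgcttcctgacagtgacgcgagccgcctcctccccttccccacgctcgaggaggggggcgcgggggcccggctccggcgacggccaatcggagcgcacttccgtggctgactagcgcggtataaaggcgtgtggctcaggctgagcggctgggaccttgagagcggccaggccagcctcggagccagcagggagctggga
HSPA1B: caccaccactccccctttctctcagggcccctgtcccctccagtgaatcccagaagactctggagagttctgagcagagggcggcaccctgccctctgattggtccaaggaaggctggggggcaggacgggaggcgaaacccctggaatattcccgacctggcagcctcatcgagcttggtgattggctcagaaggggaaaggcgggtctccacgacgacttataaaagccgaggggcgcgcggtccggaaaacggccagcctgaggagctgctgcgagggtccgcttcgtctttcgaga
E2F1: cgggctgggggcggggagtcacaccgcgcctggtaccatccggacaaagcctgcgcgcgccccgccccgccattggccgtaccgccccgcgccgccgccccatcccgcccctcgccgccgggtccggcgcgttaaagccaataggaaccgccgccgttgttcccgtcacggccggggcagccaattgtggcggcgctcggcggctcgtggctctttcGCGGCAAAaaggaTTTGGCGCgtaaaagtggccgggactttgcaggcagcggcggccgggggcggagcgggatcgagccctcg

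The CArG box was searched on both strands, and 1.6% of 27305 genes with a window hold one, against 1 of the 13 called genes with a window. The E2F words searched were TTTCCCGC, TTTGGCGC, TTTCGCGC and TTTGCCGC on both strands. They occur in 3.99% of all genes, in 0 of the 13 called genes and in 30 of 58 genes (51.7%) of a list of E2F targets of the G1/S transition. The cAMP response element TGACGTCA, its own reverse complement, is in 2.25% of all genes and in 0 of the 13. These matches describe the letters in the windows and say nothing of binding.

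Among chaperones, HSPA1B (chr6:31827738-31830254), a stress-inducible HSP70, was at 221, 231 and 204 CPM in the controls and at 805, 581 and 680 CPM with E1A. It rose 3.15-fold (log2FC 1.66 ± 0.17 SE, adjusted p = 0.00642). Its near-identical copy HSPA1A was at 4.70, 4.46 and 4.48 CPM in the controls and at 26.2, 8.64 and 12.5 CPM with E1A, with an adjusted p of 0.269 with edgeR and 0.00322 with DESeq2. Reads of these copies cannot be assigned with certainty. Their summed level ran from 208 to 236 CPM in the controls and from 590 to 831 CPM with E1A, without overlap. Of the 17 heat shock genes tested, 1 was called higher, where 0.0755% of the count table were. Of the 17, 6 were above 0, where 51.2% of all genes were. The list's median log2FC was -0.05, against 0.01 over all 20268 genes.

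The called genes also included BRD2, H4C14 and H2AC18, for which no list was tested. BRD2 (chr6:32968594-32981505), a bromodomain protein that reads acetylated histones, was at 291, 268 and 249 CPM in the controls and at 671, 568 and 572 CPM with E1A. It rose 2.24-fold (log2FC 1.17 ± 0.15 SE, adjusted p = 0.0273). H4C14 and H2AC18 are neighbouring histone genes on chromosome 1. H4C14 was at 3.24, 4.29 and 4.17 CPM in the controls and at 12.6, 21.1 and 21.6 CPM with E1A (4.71-fold, log2FC 2.23 ± 0.26 SE, adjusted p = 0.0141). H2AC18 was at 8.39, 11.5 and 9.79 CPM and at 32.98, 36.2 and 33.5 CPM (3.46-fold, log2FC 1.79 ± 0.19 SE, adjusted p = 0.00642). Both have near-identical copies, so these levels may include reads of H4C15 and H2AC19; the summed level of H4C14 and H4C15 also did not overlap between groups.

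SPEN (chr1:15836095-15940456), a transcriptional repressor that binds RNA, was at 93.9, 80.4 and 68.3 CPM in the controls and at 199, 224 and 193 CPM with E1A (2.54-fold, log2FC 1.344 ± 0.16 SE, adjusted p = 0.0184). SPEN-AS1, transcribed from the opposite strand at chr1:15834474-15848147, was at 3.77, 4.00 and 4.00 CPM and at 15.1, 12.8 and 15.2 CPM (3.67-fold, log2FC 1.87 ± 0.21 SE, adjusted p = 0.0153). These genes overlap and the strand used in counting is not given in the sources used here, so their reads cannot be told apart. The same holds for DSP-AS1, which overlaps the start of the desmoplakin gene DSP. DSP-AS1 was at 1.5, 2.04 and 1.82 CPM in the controls and at 5.57, 6.60 and 8.61 CPM with E1A (log2FC 1.95 ± 0.25 SE, adjusted p = 0.0273), while DSP had a log2FC of 0.24 (adjusted p = 0.805).

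The remaining called genes were at low levels. LINC00659, a long non-coding RNA, was at 7.62, 12.1 and 10.1 CPM in the controls and at 51.3, 54.8 and 88.7 CPM with E1A (6.53-fold, log2FC 2.71 ± 0.26 SE, adjusted p = 0.00642). RENO1, also long non-coding, was at 5.31, 6.53 and 4.14 CPM and at 30.97, 23.1 and 26.4 CPM (log2FC 2.33 ± 0.23 SE, adjusted p = 0.00642). KCTD12, an auxiliary subunit of GABA-B receptors, was at 5.64, 4.77 and 4.52 CPM and at 18.9, 19.2 and 16.5 CPM (log2FC 1.87 ± 0.19 SE, adjusted p = 0.00642). In all 3 the groups were well apart. PSMB9, a subunit of the immunoproteasome that cuts peptides for MHC class I, was at 1.46, 1.00 and 1.06 CPM in the controls and at 4.60, 5.07 and 4.29 CPM with E1A (3.95-fold, log2FC 1.98 ± 0.26 SE, adjusted p = 0.0278).

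NSUN5P1, a pseudogene, was at 0 counts in all 3 controls and at 1.81, 2.28 and 4.62 CPM with E1A, at least 25.7-fold higher against a floor of 3 counts per library. Over the series it was at 0 in 14 libraries and between 42 and 138 counts in 10, and 2 of 8 groups held both kinds. In parental cells it ran the other way, 2.84, 1.64 and 3.12 CPM in the controls and 0 in all 3 E1A libraries. The annotation holds overlapping entries of this name (chr7:75410322-75416794 and chr7:75410368-75416597). How reads were divided between these entries or with genes of similar sequence was not tested.

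The same genes were measured in libraries that this comparison did not use. Under oxaliplatin, E1A induction in HCT116 oxpl-R cells raised 107 genes of 16773 in the count table (0.638%) and 14 of the 2972 later genes (0.471%), and 1 fell (0.0336%). All 14 human genes called without oxaliplatin had a log2FC above 0 there, as 50.7% of all genes did, and 13 passed the test in the same direction. DSP-AS1 did not (adjusted p = 0.0508), and NSUN5P1 passed although 1 of its 3 E1A libraries was at 0. EGR1 was at 27.0, 35.2 and 39.9 CPM with oxaliplatin and at 179, 151 and 205 CPM with both (log2FC 2.39 ± 0.23 SE, adjusted p = 2.68e-05). Library 1 of the oxaliplatin group stood apart, with 1.38% of its counts from the mitochondrial genome where the other 5 had 12.2% to 19.7%. Without it, 10 of the 14 genes passed. The shares given above are for all 6 libraries, and the share of all genes that passed without library 1 is not given here.

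In parental HCT116 cells, 477 genes rose (2.91%) and 1082 fell (6.59%) of 16417 in the count table, and 57 rose (1.95%) and 107 fell (3.65%) of 2928 later genes. Of the 14 genes, 13 rose there, and NSUN5P1 was lower. The difference in the E1A effect between the lines was tested directly and passed for 3 of 18264 genes in the count table (0.0164%) and for 0 of 3206 later genes. At an unadjusted p below 0.05 these numbers were 428 (2.34%) and 79 (2.46%). DESeq2 called 2 genes with a larger log2FC in the resistant cells (0.011%) and 4 with a smaller one (0.0219%), and 1 later gene with a smaller one (0.0312%). The 3 genes were NSUN5P1, DSP-AS1 and NRP2. DSP-AS1 rose more in parental cells, from 1.40, 1.16 and 1.87 CPM to 23.1, 18.4 and 26.2 CPM (difference of log2FC, resistant minus parental, -2.01 ± 0.32 SE, adjusted p = 0.0326). NRP2, a coreceptor for semaphorins and VEGF, was at 65.9, 58.1 and 56.5 CPM in HCT116 oxpl-R controls and at 51.6, 51.2 and 43.2 CPM with E1A, and in parental cells it went from 1.75, 1.78 and 1.73 to 5.91, 7.82 and 5.78 CPM (difference -2.22 ± 0.24 SE, adjusted p = 0.000175). Ad5-E1A itself had a difference of -0.79 ± 0.23 SE, which did not pass after adjustment (unadjusted p = 0.00326 by the interaction test of edgeR). The numbers of calls in the lines were not themselves compared by a test.

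**Figure D2:**
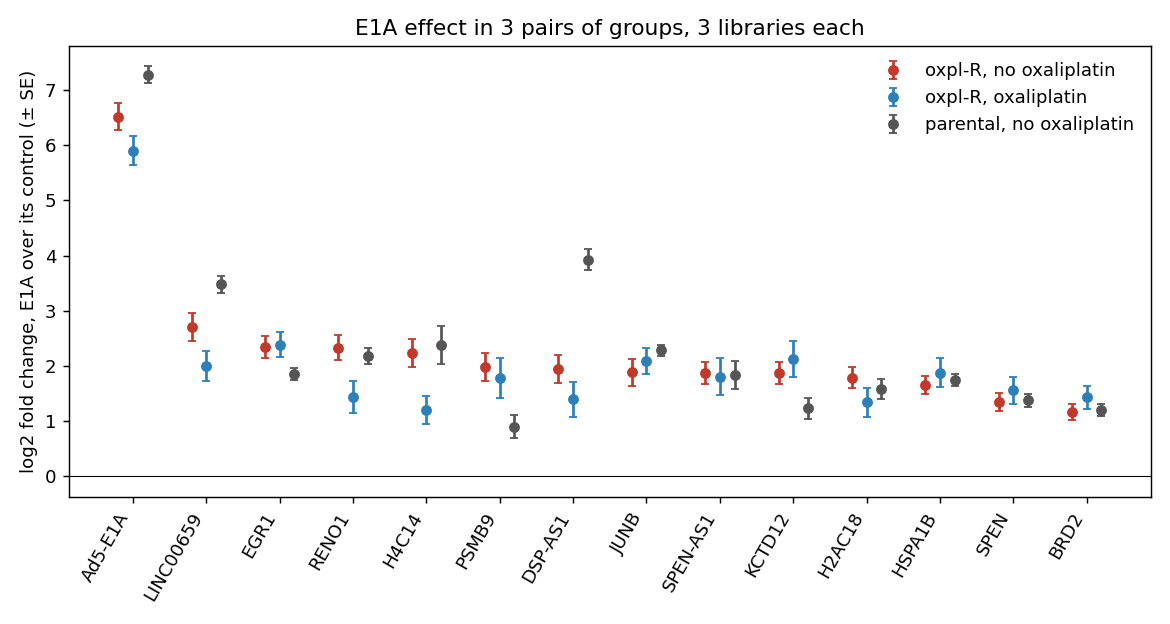
log2 fold change with its standard error for E1A induction over its own control in HCT116 oxpl-R cells without and with oxaliplatin and in parental HCT116 cells, 3 libraries a group. NSUN5P1 is left out, and every gene shown is above 0 in all 3 pairs of groups. Ad5-E1A, DSP-AS1, LINC00659, H4C14 and JUNB have their highest log2FC in parental cells.

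E2F targets of the G1/S transition and DNA replication, the genes that release from RB1 is known to raise, held 0 called genes without oxaliplatin, of 65 tested. The median log2FC was 0.17 against 0.01 over all genes, and 54 were above 0, where 51.2% of all genes were. Of the 65, 14 were higher without overlap of the groups and 0 lower, where 6.9% and 4.82% of the count table were. The median deviation of the list from the control mean, on the scale of log2(CPM + 0.5), was -0.117, 0.022 and 0.115 in the controls and 0.152, 0.167 and 0.250 in the E1A libraries. Every E1A library was above every control, with control replicate 3 the closest. E2F1 was at 87.5, 103 and 103 CPM in the controls and at 167, 123 and 138 CPM with E1A, a log2FC of 0.54 ± 0.16 SE that did not pass (adjusted p = 0.568). The groups did not overlap. RRM2, a subunit of ribonucleotide reductase, had a log2FC of 0.44 (adjusted p = 0.786), and CHAF1A, of the histone chaperone CAF-1, one of 0.37 (adjusted p = 0.749). Genes of the G2 and M phases had a median of 0.14, with 44 of 57 above 0 and 0 called. Their median deviation was -0.082, -0.033 and 0.080 in the controls and 0.031, 0.018 and 0.231 with E1A, so the groups overlapped. Of the 57, 1 was higher and 1 lower without overlap, where 6.9% and 4.82% of the count table were. The proliferation marker MKI67 had a log2FC of 0.51 (adjusted p = 0.577).

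With oxaliplatin the same list stood at a median of 0.95, and 22 of 65 genes rose, where 0.638% of the count table did. E2F1 was at 23.9, 20.6 and 22.3 CPM with oxaliplatin alone and at 109, 83.2 and 115 CPM with E1A and oxaliplatin, and rose by a log2FC of 2.20 ± 0.22 SE (adjusted p = 4.40e-05). For the genes of G2 and M phases the median was 0.81, with 10 of 57 called. Without library 1 of the oxaliplatin group these medians were 0.88 and 0.68, with 19 and 11 genes called. The 0.638% is for all 6 libraries, and the share of all genes called without library 1 is not given here.

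Whether the E1A effect differed with oxaliplatin was tested by the interaction over 12 libraries, and 0 of 18350 genes in the count table and 0 of 3225 later genes passed with edgeR. At an unadjusted p below 0.05 there were 471 (2.57%) and 97 (3.01%). DESeq2 called 9 genes with a larger effect under oxaliplatin (0.049%), and among the later genes 5 with a larger (0.155%) and 1 with a smaller one (0.031%). With the replicate number as a block in edgeR, 14 genes over both tables passed, E2F1, MCM5 and CDT1 among them. In the edgeR test without the block, E2F1 came closest (difference of log2FC, with minus without oxaliplatin, 1.65 ± 0.26 SE, adjusted p = 0.0722). It passed with DESeq2 (adjusted p = 1.24e-05), without E1A replicate 1 and without library 1 of the oxaliplatin group. MCM5, of the replicative helicase, had a difference of 1.43 ± 0.25 (adjusted p = 0.131), and passed with DESeq2 (adjusted p = 3.50e-05) and without library 1 of the oxaliplatin group. CDT1, which loads that helicase, had one of 1.66 ± 0.31 (adjusted p = 0.148) and passed with DESeq2 (adjusted p = 0.00525). Of the 65 E2F targets, 64 had a difference above 0, with a median of 0.81. Over all genes 49% were above 0, with a median of -0.01.

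**Figure D3:**
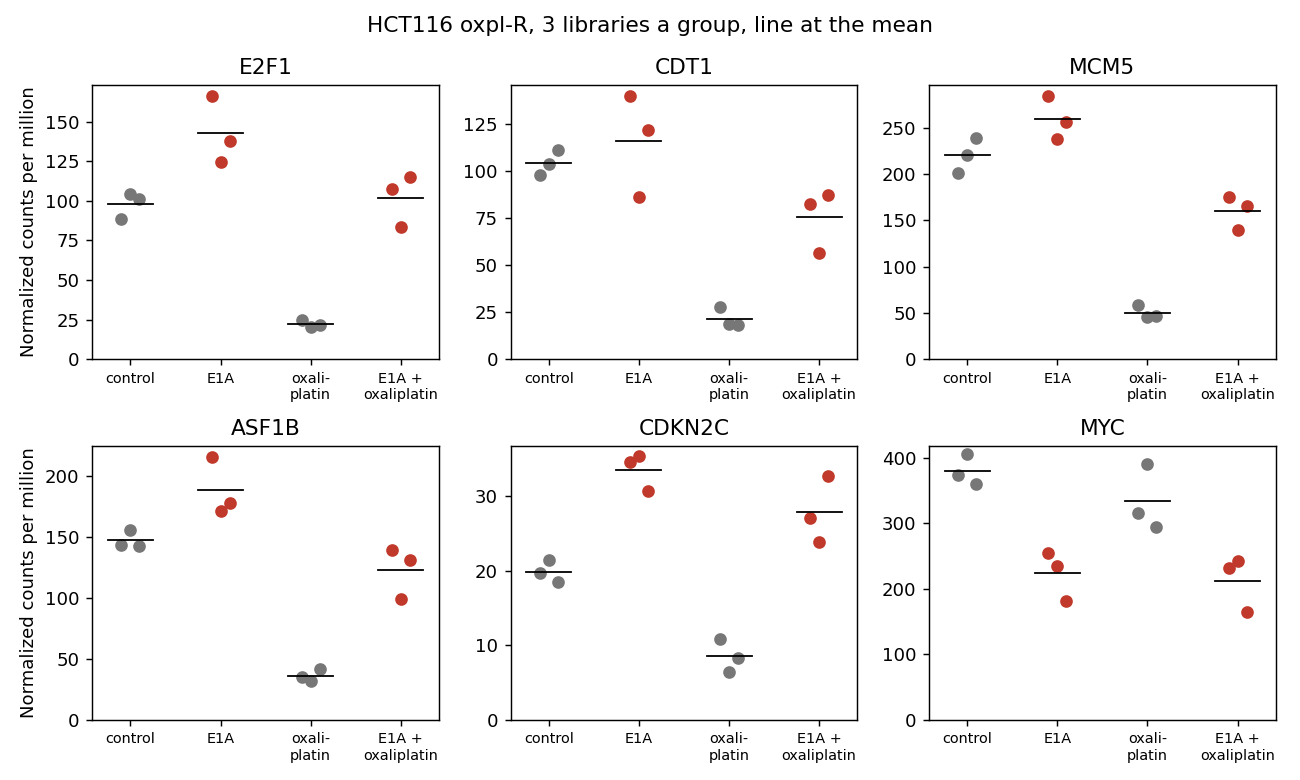
Normalized CPM of 5 cell cycle genes and MYC in the 12 HCT116 oxpl-R libraries, 3 a group, grey without and red with E1A, with a line at the mean. E2F1 lies between 88.3 and 104 in the controls, between 125 and 166 with E1A, between 20.5 and 24.9 with oxaliplatin and between 83.4 and 115 with both.

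Of 33 regulators of this pathway, genes of the RB family, E2F factors, DREAM subunits, G1 cyclins, kinases and their inhibitors, 0 passed, with a median of 0.08. Of these, 9 were higher and 3 lower without overlap of the groups, where 6.9% and 4.82% of the count table were. CDKN2C, an inhibitor of CDK4 and CDK6, was at 19.6, 21.2 and 18.9 CPM in the controls and at 34.8, 34.8 and 30.7 CPM with E1A (log2FC 0.75 ± 0.16 SE, adjusted p = 0.286 with edgeR and 0.00577 with DESeq2). RB1 itself had a log2FC of 0.16 (adjusted p = 0.805). Of 22 host proteins known to be bound by E1A, 0 were called and the median was -0.02; EP300 had a log2FC of -0.01 (adjusted p = 0.995) and CREBBP one of 0.10 (adjusted p = 0.879).

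AP-1 subunits, immediate early genes and feedback regulators of ERK spread in both directions. Of 32 tested, 2 were called higher, EGR1 and JUNB, where 0.0755% of the count table were. Without overlap of the groups, 13 were higher and 7 lower, where 6.9% and 4.82% of the count table were, and the median was 0.21. CCN2, a matricellular growth factor, was at 3.77, 2.59 and 2.47 CPM in the controls and at 9.11, 7.89 and 7.61 CPM with E1A (log2FC 1.48 ± 0.23 SE, adjusted p = 0.106 with edgeR and 0.000211 with DESeq2). IER2 had a log2FC of 0.81 and DUSP1, a phosphatase that switches off MAP kinases, one of 0.82 (adjusted p = 0.286 for both with edgeR, and 0.0105 and 0.00513 with DESeq2). In the other direction, MYC was at 370, 403 and 367 CPM in the controls and at 256, 232 and 182 CPM with E1A (log2FC -0.77 ± 0.16 SE, adjusted p = 0.286 with edgeR and 0.0132 with DESeq2). FOSL1, another AP-1 subunit, had a log2FC of -0.56 (adjusted p = 0.527).

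Interferon-stimulated genes had the highest median of the 21 lists, 0.26, with 27 of 43 above 0 and 0 called. On the scale of log2(CPM + 0.5), their median deviation from the control mean was 0.000, -0.139 and 0.107 in the controls. It was -0.008, 0.000 and 0.329 in the E1A libraries, so only E1A replicate 3 lay above every control. Under oxaliplatin the median of this list was 0.01. OAS3, a sensor of double-stranded RNA, had a log2FC of 0.47 (adjusted p = 0.634) and IRF7 one of 1.02 (adjusted p = 0.669). Of the 18 genes of MHC class I antigen presentation, PSMB9 was called and 13 were above 0, with a median of 0.10. Their median deviation was -0.015, -0.018 and -0.002 in the controls and 0.212, 0.145 and 0.059 with E1A, without overlap. Of the 18, 6 were higher and 0 lower without overlap, where 6.9% and 4.82% of the count table were. PSMB8, whose product joins PSMB9 in the immunoproteasome, had a log2FC of 1.53 at under 1.1 CPM (adjusted p = 0.805). For NF-kappaB targets the median was 0.03, with 0 of 22 called.

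Lists with a median below that of all genes held 0 called genes in each direction, other than HSPA1B. HIF targets had the lowest median, -0.25, with 5 of 23 above 0, where 51.2% of all genes were. Their median deviation from the control mean was 0.185, -0.077 and -0.163 in the controls and -0.004, -0.243 and -0.175 with E1A. The groups overlapped, with control replicate 1 the highest. ADM, a vasodilator peptide, had a log2FC of -0.54 (adjusted p = 0.681). Nucleolar ribosome biogenesis and MYC targets had a median of -0.21, with 3 of 25 above 0. Their median deviation was -0.056, 0.050 and 0.015 in the controls and -0.158, -0.141 and -0.242 with E1A, without overlap. Targets of p53 had a median of -0.14, with 9 of 36 above 0. Their median deviation was -0.015, 0.031 and -0.007 in the controls and -0.066, -0.152 and -0.144 with E1A, also without overlap. Of the 36, 8 were lower and 1 higher without overlap, where 4.82% and 6.9% of the count table were. PLK2 had a log2FC of -0.74 (adjusted p = 0.37), GADD45A one of -0.50 (adjusted p = 0.434), and CDKN1A, the cell cycle inhibitor p21, one of -0.07 (adjusted p = 0.939). ATF4 targets stood at -0.13, with 9 of 36 above 0, as did ERBB receptors and ligands, with 3 of 11, where EREG had a log2FC of -0.79 (adjusted p = 0.46). The 13 protein genes of the mitochondrial genome stood at -0.14.

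Epithelial junction and keratin genes had a median of -0.13, and 12 of 39 were lower without overlap of the groups, where 4.82% of the count table were. KRT7 was at 24.78, 29.8 and 29.1 CPM in the controls and at 15.4, 16.8 and 14.3 CPM with E1A (log2FC -0.85 ± 0.17 SE, adjusted p = 0.269 with edgeR and 0.00322 with DESeq2). The cholesterol, NRF2 and apoptosis lists lay between -0.05 and -0.03, and the WNT and matrix lists at 0.05 and 0.03. Of the apoptosis genes, CASP9, the initiator caspase of the mitochondrial pathway, was at 20.0, 20.0 and 19.5 CPM in the controls and at 40.5, 34.8 and 38.2 CPM with E1A (log2FC 0.93 ± 0.15 SE, adjusted p = 0.136 with edgeR and 1.45e-05 with DESeq2). BCL2L1, which encodes the survival protein BCL-XL, had a log2FC of -0.57 (adjusted p = 0.549).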

How the data were processed

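RNA of HCT116 oxpl-R cells and of parental cells was read in 3 libraries a group, and samples were grouped by the labels of the series. Per the study's methods and the submitters' processing notes, the authors trimmed reads with Trimmomatic, quantified them with Salmon 1.6.0 on GRCh38 and summed them per gene. Their deposited values are unnormalized estimated counts for each gene, and these were rounded here. The count table holds 33113 genes up to SETP6. A second table of 37967 genes, named as TPM, has column sums far above those of TPM and was read as deposited length-scaled estimated counts, which differs from the unit assumed in planning. It was tested by itself and used for the 4854 genes after SETP6, and TSC22D4 and later genes were not used here. Totals per library limit precision, and floors of 3 counts cover counting error only.

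Groups were tested by edgeR 4.0.16 in R 4.3.3 (TMM, quasi-likelihood test). P-values were adjusted by Benjamini-Hochberg over every gene that had counts in at least 1 library compared, and differences of effects were tested by interaction terms. SE is |log2FC| divided by the root of the quasi-F statistic, which takes in the spread between replicate libraries. CPM values are TMM-normalized within each comparison. The tests were tested on simulated data. With dispersions that followed the trend, false calls of edgeR stayed within the nominal rate and those of DESeq2 did not. With each gene's own estimated dispersion, unadjusted p-values of edgeR kept their nominal rate but the share of false calls exceeded 0.05 with edgeR, robust edgeR and DESeq2, so single calls near the threshold are less certain than their adjusted p-values state. DESeq2 1.42.0, RLE, library size alone, filterByExpr, all 24 samples, the replicate block, each library left out and, chosen after seeing the data, both libraries of replicate 3 left out and a robust fit served as alternatives.

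Named genes are the 10 largest and 10 smallest log2FC (4 and 4 in the second table) among calls without overlap and with at least 50 counts in every library of the higher group, and up to 5 genes a list with the smallest p. BRD2, HSPA1B and H2AC18, which complete the calls, genes set beside a named one, and other genes named with values were chosen after their values were seen. The comparison, the 21 lists and the rule were chosen with earlier results of these data known. Positions are from GENCODE 44 on GRCh38. Tables and plots used Python 3.11.15, pandas 2.3.3, numpy 2.4.6 and matplotlib 3.10.9.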

Additional observations from a re-analysis of the deposited data

Results flagged for a closer look

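For 3 genes the E1A effect differed between the resistant and the parental line by the interaction term of edgeR. NSUN5P1 had a difference of log2FC, resistant minus parental, of 18.53, which rests on groups at 0 counts and is no measure of size. NRP2 had a difference of -2.22 and DSP-AS1 one of -2.01. NRP2 was lower with E1A in 3 of 3 resistant libraries and higher in 3 of 3 parental ones. For DSP-AS1 all E1A libraries of both lines were above their controls. Groups of 3 were not tested for single outlying samples.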

How the results depend on the processing

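In the count table, E1A induction gave 13 calls, and 72 with DESeq2, 7 with filterByExpr, 44 with all 24 samples in 1 fit, 287 without both libraries of replicate 3 and 15 with the robust fit, with 2 to 22 when 1 library was left out. For genes after SETP6 the 2 calls became 12 with DESeq2, 4 with all 24 samples and 79 without replicate 3, with 0 to 3 when 1 library was left out. The 3 genes that differed between the lines became 7 with DESeq2 and 2 to 7 with 1 library left out. The 0 that differed with oxaliplatin became 15 with DESeq2 and 0 to 2 with 1 library left out. The 122 calls under oxaliplatin became 224 with DESeq2, 43 with filterByExpr and 131 to 465 with 1 library left out, and the 1723 in parental cells became 990 with filterByExpr and 393 to 2580. Fewer genes or samples enter filterByExpr and left-out fits; other causes were not tested.

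With the replicate number as a block the calls were 22 in the count table, 3 after SETP6, 7 between the lines, 14 with oxaliplatin (E2F1, MCM5 and CDT1 among them), 252 under oxaliplatin and 131 in parental cells. Same-numbered resistant control and E1A libraries deviated together with correlations of -0.013, 0.502 and 0.63 for replicates 1, 2 and 3. Control replicates 2 and 3 correlated best with their own number and control replicate 1 did not, and the number was not taken as a pairing. Any shift shared by number therefore stayed in the spread between replicates in the tests without the block.

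Of the 15 genes called, 2 (Ad5-E1A and EGR1) passed in every alternative and 0 changed direction. Of 98 uncalled genes with the smallest p in their lists, 13 passed in at least 1 alternative, and all but HSPA8, NPM1 and SLC7A11 of these passed with DESeq2. MT-ND3, not called (log2FC 0.29), changed sign to -0.043 without E1A replicate 2 and ran up to 0.60 with another library left out. Of 21 lists, 9 had medians above that of all genes, and 6 to 9 under the alternatives. For NSUN5P1, at 0 counts in all 3 controls, depth gives only a lower bound of the fold.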

Other observations

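DESeq2 called 21 genes lower with E1A in the resistant cells over both tables, of which edgeR called 0 (DESeq2 exceeded its nominal rate of false calls in simulated counts). In the libraries treated with oxaliplatin, which that comparison did not use, all 21 had a log2FC below 0, where 50.7% of all genes were above it. Of the 21, 1 passed edgeR's test as lower, TMEM139 (log2FC -0.96, adjusted p = 0.0312), where 0% of the count table and 0.0336% of the later genes did. In parental cells 19 of the 21 were below 0, where 52.1% of all genes were above it. The genes include MYC, the keratins KRT7, KRT13 and KRT80, HMGA2, which encodes a chromatin protein, BMP4, a secreted morphogen, and CAV1, the main protein of caveolae. HMGA2 had a log2FC of -0.55 under oxaliplatin (adjusted p = 0.605 with edgeR) and BMP4 one of -0.66 (adjusted p = 0.271). These genes were chosen on the resistant cells without oxaliplatin, and the values under oxaliplatin are from other libraries.

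Of the 62 human genes that DESeq2 called higher, 61 were above 0 under oxaliplatin, as 50.7% of all genes were. There 30 of the 62 passed edgeR's test as higher, where 0.638% of the count table and 0.471% of the later genes did. They include HEY1 (log2FC 1.82, adjusted p = 0.0124) and NRARP (2.13, adjusted p = 0.000153), both known as targets of Notch, and IVL, the cornified envelope protein involucrin (3.74, adjusted p = 7.59e-05).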
